A study of Mus musculus with 17 samples.

Results

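Ribosome biogenesis genes encode the nucleolar machinery that transcribes, cuts, modifies and assembles ribosomal RNA, and they are examined here gene by gene together with Myc and Mycn. A list of 32 genes was chosen by name, and 30 of them were measured, of 19938 genes tested in all. Ppan had only a probe set shared with a neighbouring transcript, and Noc2l had no probe set under the gene rule, so both are not analysed here. By role the measured genes are 2 Myc family factors, 3 nucleolar proteins and chaperones, 4 proteins of small nucleolar ribonucleoproteins (snoRNPs), 2 RNA polymerase I subunits, 8 small subunit factors and 11 large subunit factors.

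The study profiled 12 mammary tumours of mice beside 5 samples of normal mammary tissue, each on 1 array and all of mixed strain background. In the 9 Rb/p53 tumours both Rb and p53 had been deleted, in 2 by Ad-CMVcre, an adenovirus that carries Cre recombinase under a general viral promoter, and in 7 by MMTV-Cre, a Cre transgene driven by the mouse mammary tumour virus promoter. Both Ad-Cre tumours and MMTV-Cre replicates 3 to 7 are labelled as transplants, MMTV-Cre replicate 1 as nulliparous and replicate 2 as parous. The 3 p53 tumours carried MMTV-Cre and a p53 deletion, and the normal tissue was taken from mice of the Rb/p53 strain. The labels give no ages. One title disagrees with the other labels of its sample: p53 replicate 3 is called Rb/p53 there, but p53-deleted in source name, description and tissue, and it was kept as p53. The labels call the tumours independent and do not say whether the normal samples came from separate mice, so a p-value here reflects only how far these samples scatter, which may be technical among the normal ones.

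Values are log2 intensities, so a difference of 1 is a doubling, and levels of different probe sets are not set against each other. The p53 replicate 2 array stood apart from the other 16, with correlations of 0.888 to 0.915 over all probe sets where the others reached at least 0.929 among themselves. Results with p53 tumours include it unless stated, and several are also given without it. Rb1, the deleted gene that the array measures, read between 9.29 and 9.92 in the Rb/p53 tumours, 9.93, 11.00 and 10.27 in p53 tumours 1 to 3, and between 10.93 and 11.50 in normal tissue; p53 replicate 1 lay next to the highest Rb/p53 tumour. The log2 fold of Rb1 was -1.67 ± 0.16 between Rb/p53 tumours and normal tissue and -0.86 ± 0.20 between Rb/p53 and p53 tumours (SE; limma adjusted p = 7.74e-07 and 0.112). It was -0.81 ± 0.21 between p53 tumours and normal tissue (adjusted p = 0.0124), which passed although the p53 tumours are labelled as p53-deleted only. The deleted exons are not given here, and the probe set may keep signal from the others. The groups also differed in cell type markers. Of 11 adipocyte markers 11 fell in Rb/p53 tumours, and their mean level ran from 7.59 to 8.79 in these tumours, from 7.54 to 8.42 in p53 tumours and from 12.59 to 13.06 in normal tissue. Of 11 luminal markers 8 fell and of 9 basal markers 8 fell, while among 7 macrophage markers 3 rose and 1 fell, with mean levels of 10.15 to 11.13 in Rb/p53 tumours and 10.03 to 10.46 in normal tissue. Epcam and Krt8, which define luminal epithelium, averaged 9.39 ± 1.59 and 12.43 ± 0.80 in Rb/p53 tumours (SD, n = 9) and 7.75 ± 1.80 and 12.25 ± 1.64 in p53 tumours (SD, n = 3), against 12.04 ± 0.11 and 12.45 ± 0.10 in normal tissue (SD, n = 5). An intensity has no true 0, and the lowest quartile boundary of any array, 6.37, is used below as the mark under which a level is not shown to be above background. The part of these cell types in the results was not tested, and in bulk tissue fewer cells of a type and less RNA per cell cannot be told apart.

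Ribosomes are built in the nucleolus. RNA polymerase I transcribes one long precursor, snoRNPs guide chemical marks and cuts on it, and assembly factors fold and trim it into the small and the large subunit. Myc is a transcription factor known to activate genes at every one of these steps, usually through the E-box CACGTG near their start sites, and Rb is known from cultured cells to restrain RNA polymerase I.

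Promoters were available for 26 of the 32 genes in a RefSeq table on GRCm38.p6, each running from 250 bases before to 50 after the start site; Myc, Npm1, Fbl, Rrp12, Bop1 and Rrs1 had none there. The E-box CACGTG, which reads the same on both strands, was present in 5 of these 26 genes (19.2%), against 8.09% of all 27025 genes with a promoter of that length. They are Pes1, Mybbp1a, Nop2, Utp20 and Wdr43. The related letters CACGCG or, on the other strand, CGCGTG were present in 9 of the 26 (34.6%), against 10.5% of all genes. A match is a description of the sequence and not a site shown to be bound. The 4 promoters printed here, 5′ to 3′ with CACGTG in capitals, belong to genes that rose in Rb/p53 tumours against normal tissue. Of the risers with a promoter 2 of 9 hold CACGTG, and of the genes that did not pass 3 of 15 do. Pes1 and Mybbp1a hold the E-box, 3 and 41 bases into the transcribed side of the start, whereas Utp15 and Nop14 do not hold it in this window. Levels of Utp15 and Nop14 in Rb/p53 tumours lay above all normal samples, as in 7.9% of all genes. The related letters CACGCG or CGCGTG are present in Pes1, Mybbp1a and Utp15, and not in Nop14.
Pes1, chr11:3963725-3964024, strand +: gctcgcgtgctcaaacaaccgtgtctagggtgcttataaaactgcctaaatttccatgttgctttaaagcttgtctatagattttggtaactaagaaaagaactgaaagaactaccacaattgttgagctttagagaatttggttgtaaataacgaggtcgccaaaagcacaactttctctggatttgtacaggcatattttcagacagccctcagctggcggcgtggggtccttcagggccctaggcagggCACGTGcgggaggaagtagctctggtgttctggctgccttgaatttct
Mybbp1a, chr11:72441077-72441376, strand +: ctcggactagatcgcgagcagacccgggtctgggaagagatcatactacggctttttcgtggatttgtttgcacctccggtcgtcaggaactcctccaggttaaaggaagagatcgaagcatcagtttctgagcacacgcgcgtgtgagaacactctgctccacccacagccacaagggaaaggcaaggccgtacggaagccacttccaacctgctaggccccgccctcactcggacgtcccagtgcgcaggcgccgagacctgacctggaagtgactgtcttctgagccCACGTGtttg
Utp15, chr13:98262943-98263242, strand -: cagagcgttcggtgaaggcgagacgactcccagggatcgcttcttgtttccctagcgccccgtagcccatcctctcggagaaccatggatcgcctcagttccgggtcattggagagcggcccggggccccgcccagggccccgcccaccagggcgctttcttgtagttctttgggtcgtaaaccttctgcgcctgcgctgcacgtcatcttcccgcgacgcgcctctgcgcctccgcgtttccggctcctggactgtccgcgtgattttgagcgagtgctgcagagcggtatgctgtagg
Nop14, chr5:34660099-34660398, strand -: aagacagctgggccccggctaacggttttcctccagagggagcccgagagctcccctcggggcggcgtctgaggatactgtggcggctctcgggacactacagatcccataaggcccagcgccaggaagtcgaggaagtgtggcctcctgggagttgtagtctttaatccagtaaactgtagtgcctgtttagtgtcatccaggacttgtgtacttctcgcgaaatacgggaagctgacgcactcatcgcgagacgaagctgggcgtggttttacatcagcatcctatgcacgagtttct

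The Rb/p53 tumours were set against normal tissue first. Ribosome biogenesis genes were mostly higher in the Rb/p53 tumours, by modest amounts. Of the 30 genes 10 rose and 0 fell (33.3%, limma, adjusted p below 0.05 over all genes), where 27.6% of all genes passed, 14.2% higher and 13.4% lower. The risers were Pes1, Utp15, Nop14, Nip7, Nob1, Noc4l, Fbl, Mybbp1a, Wdr12 and Rrp9, and their folds ran from 1.41-fold for Rrp9 to 1.97-fold for Nip7. In 29 of the 30 the tumour mean lay above the normal mean, as it did for 56.1% of all genes, and the median log2 fold was 0.51, against 0.03 for all genes. Of 8 small subunit factors 5 rose, of 11 large subunit factors 4, of 4 snoRNP proteins 1, and of the Myc family, the RNA polymerase I subunits and the nucleolar chaperones none did. At an unadjusted p below 0.05, 14 genes were higher and 0 lower, against 20.3% of all genes higher, and these 14 were again subunit factors and a snoRNP protein only.

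The count rests in part on 2 arrays. Normal replicate 1 had the lowest level among normal samples in 27 of the 30 genes. Without it 5 genes rose (Pes1, Utp15, Nop14, Nip7 and Nob1; 10.6% of all genes rose then), and the median over the 28 genes other than Myc and Mycn was 0.35. That array was also lowest in the replication and mitosis list, with a mean of 7.96 against 9.36 to 10.21 in the other normal samples, and the part of this in the result was not tested. With p53 replicate 2 left out of the shared estimate of spread, a choice made after looking at the values, 17 rose (18.4% of all genes). The further risers were then Myc, Nolc1, Nop56, Nop58, Bop1, Gnl3 and Nop2, so the roles with a riser depend on this array. When they alone stood for the Rb/p53 tumours, the 2 tumours not labelled as transplants gave 2 risers, Pes1 and Utp15, where 3.38% of all genes rose. The 2 Ad-Cre tumours gave 1, Pes1, where 3.96% of all genes rose. In both settings the p53 tumours stayed in the shared estimate of spread.

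**Figure D1:**
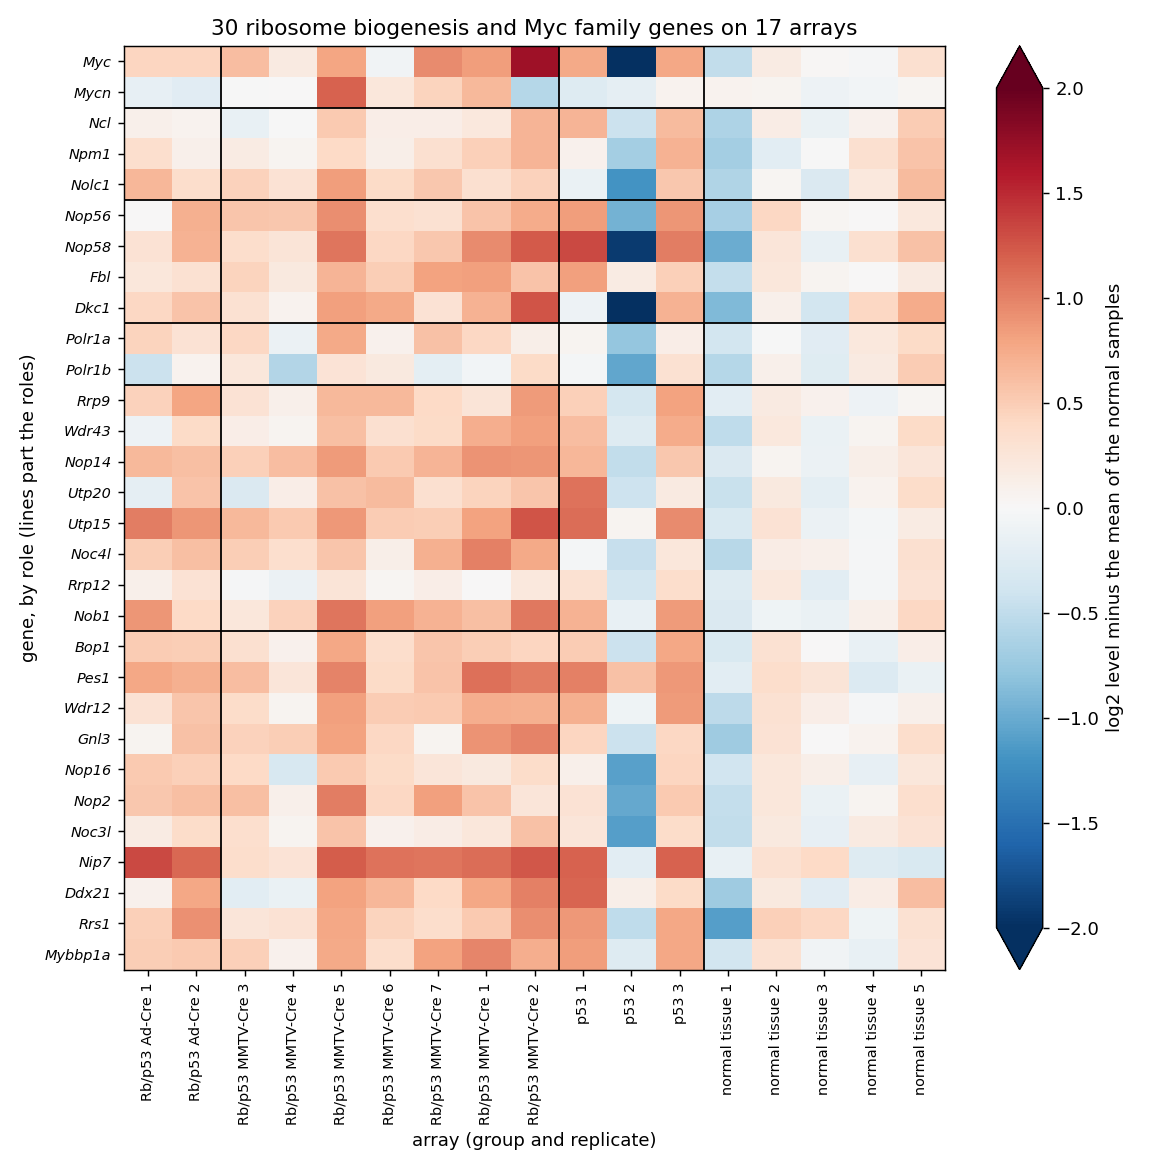
Each row is a gene and each column an array, coloured by the log2 level minus the mean of the normal samples, with red above and blue below that mean and the scale ending at 2 in each direction. The Rb/p53 columns are mostly red, while p53 replicate 2 and normal replicate 1 are blue in nearly every row, with the lowest level in 27 of 30 genes among tumours and in 27 of 30 among normal samples.

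Myc itself ranged in the Rb/p53 tumours from 10.92 to 12.68 with a median of 11.60, and read 10.49, 11.14, 11.00, 10.96 and 11.31 in normal tissue. The ranges overlapped, since MMTV-Cre replicates 4 and 6 lay among the normal samples. The log2 fold was 0.65 ± 0.39 (SE; 11.63 ± 0.51 in 9 tumours and 10.98 ± 0.30 in 5 normal samples, SD), and it did not pass (limma adjusted p = 0.251). It passed limma's test under 3 of 26 alternatives, with array weights (adjusted p = 0.0356), with only the arrays compared (adjusted p = 0.0417) and without p53 replicate 2 in the spread (adjusted p = 0.0344), and reached an adjusted p of 0.793 at the other end. Mycn, its relative that is best known from the nervous system, ranged from 7.17 to 8.91 with a median of 7.75 in Rb/p53 tumours and read 7.80, 7.80, 7.63, 7.68 and 7.77 in normal tissue. The tumours lay on both sides of the tight normal values, highest in MMTV-Cre replicate 5 and lowest in replicate 2, which had the highest Myc. Its log2 fold was 0.17 ± 0.21 (limma adjusted p = 0.624).

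**Figure D2:**
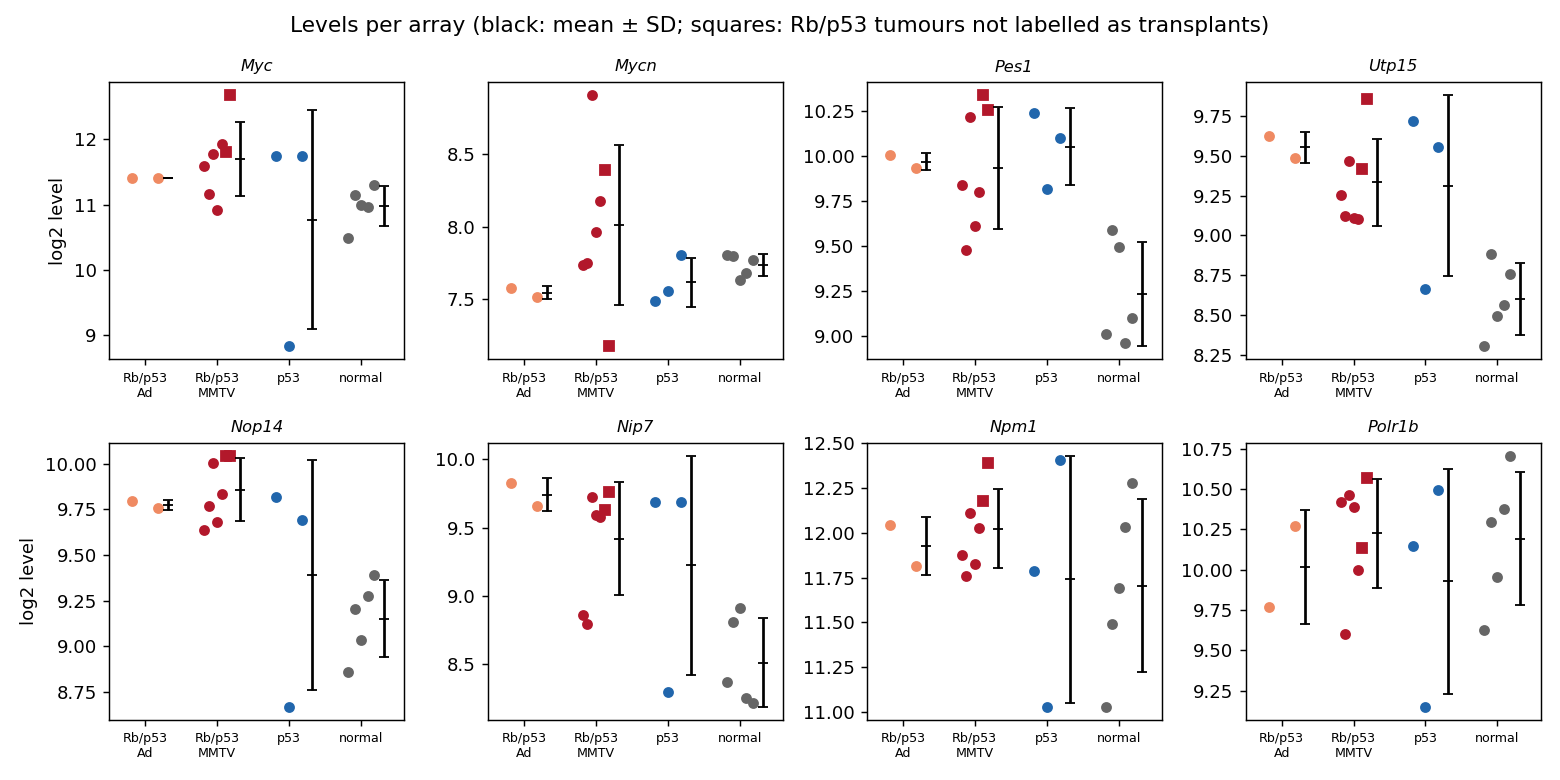
Log2 levels of 8 genes on each array (vertical axis) are shown by group (horizontal axis), with the mean and SD in black beside the points and squares for the MMTV-Cre tumours not labelled as transplants. For Utp15 and Nop14 all Rb/p53 points lie above all normal points, for Pes1 and Nip7 most do, and for Myc, Mycn, Npm1 and Polr1b the groups overlap; p53 replicate 2 is the lowest p53 point in every panel but that of Mycn, at 8.83 for Myc.

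None of the 3 nucleolar proteins and chaperones passed, though Nolc1 did under some alternatives given below. Ncl, nucleolin, a major RNA-binding protein of the nucleolus, ranged from 11.38 to 12.21 with a median of 11.65 in Rb/p53 tumours and read 10.92, 11.67, 11.40, 11.62 and 12.04 in normal tissue (log2 fold 0.19 ± 0.20, limma adjusted p = 0.566). Npm1, nucleophosmin, a chaperone of ribosome assembly, ranged from 11.76 to 12.39 with a median of 12.03 in the tumours and read 11.03, 11.49, 11.69, 12.03 and 12.28 in normal tissue (0.30 ± 0.21, adjusted p = 0.345). For both genes the normal samples spanned most of the tumour range, with normal replicate 1 below all tumours. Nolc1, a nucleolar partner of snoRNPs, had the largest fold of the 3 and ranged from 10.26 to 10.80 with a median of 10.43 in Rb/p53 tumours and read 9.36, 10.00, 9.69, 10.18 and 10.61 in normal tissue. All tumours lay above 4 of the 5 normal samples, and normal replicate 5 lay among them (log2 fold 0.48 ± 0.23, limma adjusted p = 0.138). Nolc1 rose with array weights, with only the arrays compared and with p53 replicate 2 left out of the shared spread. In these settings 21.2%, 18.6% and 18.4% of all genes rose.

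Among the snoRNP proteins Fbl, fibrillarin, the methyltransferase of box C/D snoRNPs, rose. It ranged from 10.27 to 10.91 with a median of 10.58 in Rb/p53 tumours and read 9.61, 10.32, 10.13, 10.09 and 10.27 in normal tissue. Most tumours lay above the normal values, and the lowest tumours met the highest normal samples (log2 fold 0.51 ± 0.14, limma adjusted p = 0.0137). Fbl has a further probe set of its own that followed the kept one at r = 0.54 over the 17 arrays and averaged 9.96 in Rb/p53 tumours against 9.79 in normal tissue. With the mean of both the call was lost (0.34, limma adjusted p = 0.0777), as it was without normal replicate 1 (adjusted p = 0.0545). The call on Fbl was lost in 5 of 26 alternatives in all, cyclic loess among them. Its partners in the same particle, Nop56 at 0.52 ± 0.26 and Nop58 at 0.64 ± 0.41, and Dkc1, dyskerin, the pseudouridine synthase of box H/ACA snoRNPs, at 0.57 ± 0.42, had log2 folds of like size and did not pass (limma adjusted p = 0.152, 0.290 and 0.361). In these 3 genes the normal samples spread by 0.41, 0.62 and 0.64 (SD, n = 5), and replicate 1 was the lowest of them each time, for Nop58 at 8.38 where the others read 9.23 to 9.96. The p53 tumours, which enter the shared estimate of spread, had SDs of 1.04, 1.79 and 1.82 (n = 3). With p53 replicate 2 left out of that estimate Nop56 and Nop58 rose and Dkc1 did not, where 18.4% of all genes rose.

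Neither of the 2 core subunits of RNA polymerase I passed, though Polr1a rose with array weights, where 21.2% of all genes rose. Polr1a, which holds the catalytic centre together with Polr1b, had a log2 fold of 0.33 ± 0.17 (limma adjusted p = 0.173). Polr1b was the only gene of the 30 with a mean below that of normal tissue, by a log2 fold of -0.01 ± 0.22 (10.18 ± 0.33 in 9 Rb/p53 tumours and 10.19 ± 0.41 in 5 normal samples, SD; adjusted p = 0.980).

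The 2 genes of the 30 without overlap between Rb/p53 tumours and normal tissue were small subunit factors, Utp15 and Nop14. Utp15, a subunit of the processome that binds the nascent precursor, ranged from 9.10 to 9.86 with a median of 9.41 in Rb/p53 tumours and read 8.30, 8.89, 8.49, 8.57 and 8.76 in normal tissue. Nop14, an assembly factor of the small subunit, ranged from 9.63 to 10.04 with a median of 9.79 in the tumours and read 8.86, 9.21, 9.04, 9.27 and 9.39 in normal tissue. For both genes the lowest tumour lay above the highest normal sample, as for 7.9% of all genes, so 2 of 30 is no more than that share. Their log2 folds were 0.78 ± 0.17 and 0.69 ± 0.15 (limma adjusted p = 0.00222 and 0.00301). The call on Utp15 was lost in 1 of 26 alternatives and that on Nop14 in 2.

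Nob1, the endonuclease that trims the small subunit RNA to its mature end, ranged from 10.05 to 10.90 with a median of 10.53 in Rb/p53 tumours and read 9.54, 9.73, 9.69, 9.93 and 10.23 in normal tissue, a log2 fold of 0.69 ± 0.18 (limma adjusted p = 0.00737). Noc4l, whose yeast counterpart pairs with that of Nop14, ranged from 9.67 to 10.57 with a median of 10.10 and read 8.99, 9.69, 9.66, 9.53 and 9.88 in normal tissue (0.56 ± 0.16, adjusted p = 0.0129). Rrp9, a protein of the snoRNP that starts processing of the small subunit RNA, ranged from 8.75 to 9.49 with a median of 9.10 and read 8.43, 8.83, 8.73, 8.55 and 8.68 in normal tissue (0.49 ± 0.16, adjusted p = 0.0333). In each of these 3 genes 1 or more tumours lay within the normal range. The call on Rrp9 was lost in 11 of 26 alternatives and that on Nob1 in 2. That on Noc4l was lost in 3, one of them without normal replicate 1 (limma adjusted p = 0.0505). Wdr43 and Utp20, processome subunits whose promoters hold the E-box, and Rrp12, an export factor, had log2 folds of 0.37 ± 0.19, 0.31 ± 0.22 and 0.10 ± 0.12 and did not pass (adjusted p = 0.170, 0.350 and 0.632).

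Among the large subunit factors Pes1, pescadillo, had the lowest adjusted p of all 30 genes. It ranged from 9.48 to 10.34 with a median of 9.93 in Rb/p53 tumours and read 9.01, 9.58, 9.49, 8.96 and 9.10 in normal tissue. Only MMTV-Cre replicate 4, at 9.48, reached into the normal range. The log2 fold was 0.71 ± 0.15, or 1.64-fold (limma adjusted p = 0.00208), and Pes1 passed in all 26 alternatives. Pes1 forms the PeBoW complex, which matures the large subunit RNA, with Bop1 and Wdr12. Wdr12 rose as well, with 9.13 to 9.90 and a median of 9.61 in the tumours and 8.56, 9.38, 9.21, 9.06 and 9.18 in normal tissue (0.51 ± 0.17, adjusted p = 0.0315), and its other probe set followed it at r = 0.98. The call on Wdr12 was lost in 7 of 26 alternatives. Bop1 had a log2 fold of 0.45 ± 0.16 and lay just outside the threshold (adjusted p = 0.0512).

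Nip7, a factor of large subunit assembly, had the highest fold. It ranged from 8.79 to 9.83 with a median of 9.63 in Rb/p53 tumours and read 8.37, 8.81, 8.91, 8.25 and 8.21 in normal tissue. In 7 of the 9 tumours it lay between 9.58 and 9.83, above all normal samples, while MMTV-Cre replicates 3 and 4 lay at 8.86 and 8.79, among them (log2 fold 0.98 ± 0.24, limma adjusted p = 0.00519). Mybbp1a, a nucleolar protein that binds Myb, ranged from 9.90 to 10.79 with a median of 10.34 and read 9.46, 10.12, 9.74, 9.68 and 10.10 in normal tissue (0.58 ± 0.18, adjusted p = 0.0249). Without normal replicate 1 its log2 fold was 0.49 (limma adjusted p = 0.0844). The call on Mybbp1a was lost in 6 of 26 alternatives, cyclic loess among them, and that on Nip7 in 2. The remaining 6 large subunit factors had log2 folds of 0.28 to 0.55. Gnl3, nucleostemin, a nucleolar GTPase of stem and tumour cells, ranged from 9.75 to 10.70 with a median of 10.20 in Rb/p53 tumours, and averaged 10.23 ± 0.34 there (SD, n = 9) and 9.71 ± 0.42 in normal tissue (SD, n = 5), with 10.05 as its highest normal value (0.53 ± 0.20, limma adjusted p = 0.0630). Nop2, a methyltransferase of the large subunit RNA, ranged from 9.92 to 10.85 with a median of 10.40 and read 9.35, 10.04, 9.68, 9.87 and 10.16 in normal tissue (0.55 ± 0.22, adjusted p = 0.0722). In both, most tumours lay above the normal samples and the lowest tumours overlapped with them. Ddx21, a helicase of the nucleolus, had the widest spread of these genes in the tumours, from 9.85 to 11.07 with a median of 10.72 (0.46 ± 0.25, adjusted p = 0.194), and the assembly factors Nop16 and Noc3l had log2 folds of 0.31 ± 0.20 and 0.28 ± 0.20 (adjusted p = 0.305 and 0.352). Rrs1, an assembly factor of the large subunit, at 7.87 ± 0.26 in 9 tumours and 7.32 ± 0.65 in 5 normal samples (SD), lay below the background mark in normal replicate 1, at 6.22.

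**Figure D3:**
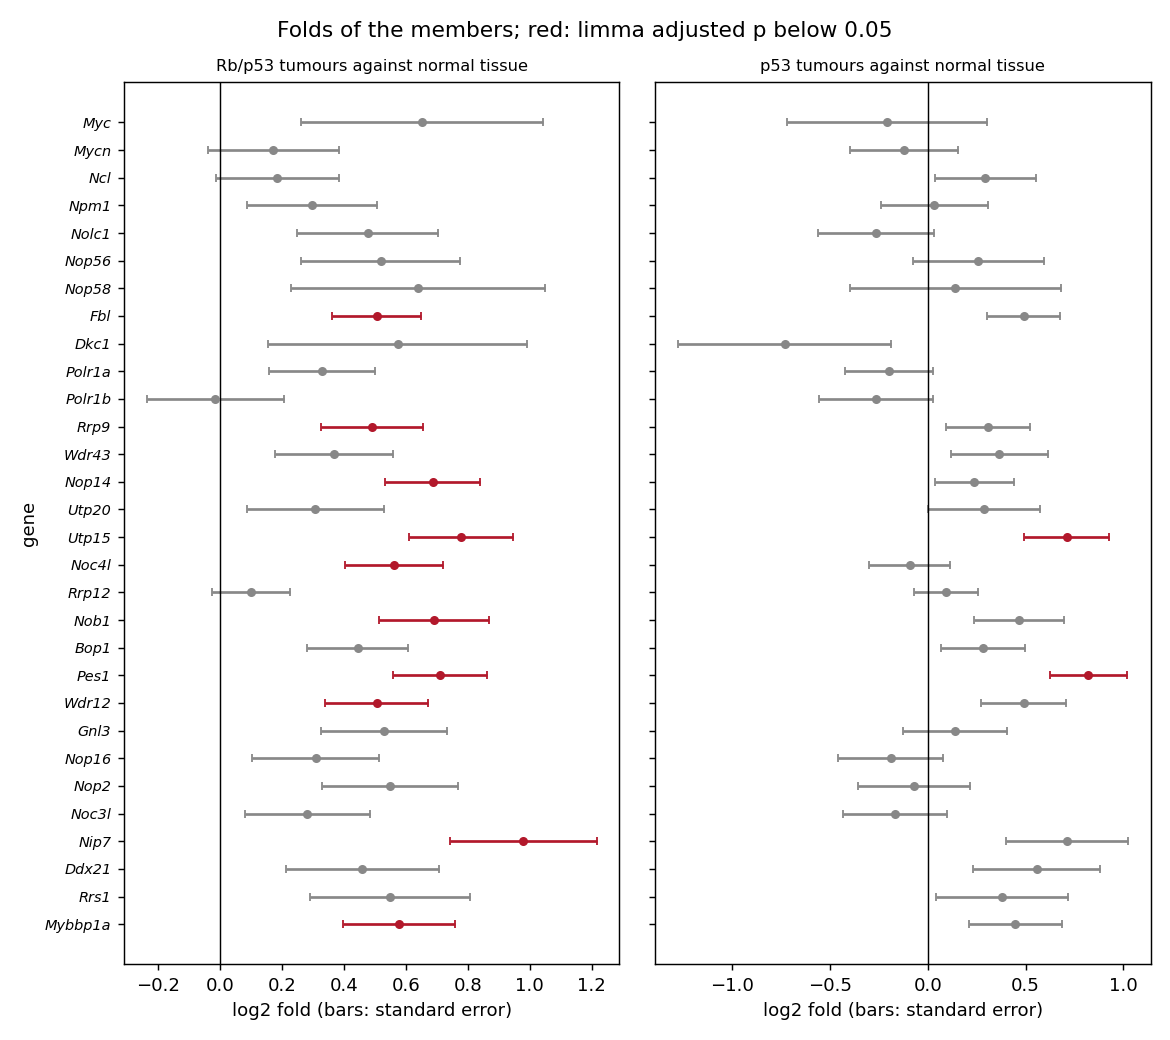
Log2 folds with their standard errors (horizontal axis) are given for the 30 genes (vertical axis) in Rb/p53 tumours against normal tissue on the left and p53 tumours against normal tissue on the right, in red where the limma adjusted p is below 0.05. On the left 10 genes are red and all but Polr1b lie above 0, and on the right only Pes1 and Utp15 are red, with longer bars.

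Further genes of the pathway, from lists chosen by name, gave mostly higher calls, where 14.2% of all genes rose. Of 44 other small subunit factors 13 rose and 0 fell (median log2 fold 0.37), led by Utp11 (1.06 ± 0.26), Utp18 (0.78 ± 0.22) and Wdr3 (0.77 ± 0.17), all processome subunits. Of 42 other large subunit factors 16 rose and 1 fell (median 0.46), with Mak16 at 0.92 ± 0.30, Nmd3, the export adaptor of the large subunit, at 0.87 ± 0.21, and Tex10 at 0.75 ± 0.14. Of 9 other snoRNP proteins 3 rose and 0 fell (median 0.62), namely Ruvbl1 and Nufip1, which assemble snoRNPs, at 0.97 ± 0.26 and 0.84 ± 0.16, and Snu13, a core protein of box C/D snoRNPs, at 0.62 ± 0.13. Of 10 other RNA polymerase I genes 4 rose and 0 fell (median 0.15), among them the subunits Polr1e at 0.72 ± 0.25 and Polr1d at 0.43 ± 0.09 and the initiation factor Rrn3 at 0.50 ± 0.17. Without normal replicate 1 these 4 lists had 9, 5, 3 and 1 risers, beside 10.6% of all genes.

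Few genes for the proteins of the ribosome itself passed. Of 55 ribosomal protein genes 2 rose, Rpl30 (0.53 ± 0.16) and Rplp0 (0.38 ± 0.12), and 2 fell, Rpl37a (-0.29 ± 0.10) and Rps6 (-0.18 ± 0.06), and the median log2 fold was 0.04, as against 0.03 for all genes. Their mean level was 11.87 to 12.06 in Rb/p53 tumours and 11.61 to 12.26 in normal tissue. Of 24 Myc targets outside ribosome biogenesis 7 rose and 1 fell (median 0.24): Bcat1, a transaminase of branched-chain amino acids, by 1.99 ± 0.36, Odc1, ornithine decarboxylase, by 1.28 ± 0.39, and Ccnd2, cyclin D2, was the one that fell (-1.17 ± 0.36). Of 13 genes of the network of Myc partners and antagonists Mxi1, an antagonist of Myc, and Mxd3 rose by 0.65 ± 0.15 and 0.37 ± 0.11, and Mlxipl and Mlxip, sensors of glucose, fell (-3.13 ± 0.18 and -0.67 ± 0.17). Mlxipl is also known from adipocytes, whose markers were lower in the tumours. Of 24 replication and mitosis genes 20 rose and 0 fell (median 1.18; 12 and 0 without normal replicate 1), with a mean level of 10.34 to 10.89 in Rb/p53 tumours and 7.96 to 10.21 in normal tissue, and the part of proliferation in the ribosome biogenesis folds was not tested.

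**Figure D4:**
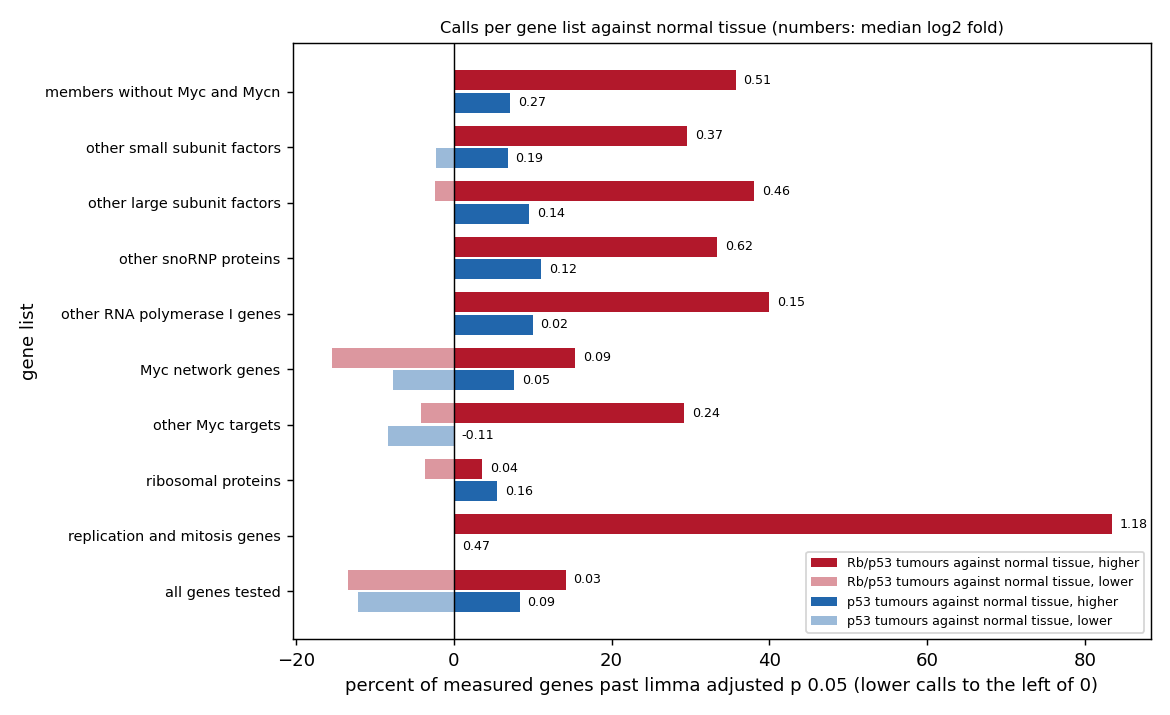
For each gene list (vertical axis) the bars give the percent of measured genes that passed a limma adjusted p of 0.05 (horizontal axis), higher calls to the right of 0 and lower calls, in pale colour, to the left, with Rb/p53 tumours in red above p53 tumours in blue and the median log2 fold beside each bar. In Rb/p53 tumours the lists of ribosome biogenesis lie to the right of all genes tested with medians of 0.15 to 0.62, and ribosomal proteins stay near 0, with a median of 0.04.

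For the 3 p53 tumours, normal tissue again served as the other side, so both comparisons share these normal samples and each gets its own values. Fewer genes passed with 3 tumours: of the 30, 2 rose, Pes1 and Utp15, and 0 fell (limma), where 8.34% of all genes rose and 12.1% fell. At an unadjusted p below 0.05, 5 were higher and 0 lower, against 18.7% of all genes higher. In 20 of the 30 the mean lay above that of normal tissue, as for 59.7% of all genes, and the median log2 fold was 0.25, against 0.09 for all genes. Cell type markers differed here too: of 11 adipocyte markers 11 fell, of 11 luminal markers 9 and of 6 endothelial markers 4, while of 7 macrophage markers 6 rose (median 1.22), and their part in the result was not tested. Pes1 read 10.24, 9.82 and 10.10 in p53 tumours 1 to 3, above all normal samples (8.96 to 9.58) as in 9.87% of all genes, a log2 fold of 0.82 ± 0.20 (limma adjusted p = 0.00747), and it passed in all 16 alternatives. Utp15 read 9.72, 8.66 and 9.55, against 8.30 to 8.89 in normal tissue, so that replicate 2 lay among the normal samples (0.71 ± 0.22, adjusted p = 0.0308); this call was lost in 7 of the 16.

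Of all arrays left out in turn, p53 replicate 2 moved this comparison most. It was the lowest of the 12 tumours in 27 of the 30 genes. Nop58 read 10.69, 7.46 and 10.40 in p53 tumours 1 to 3, against 8.38 to 9.96 in normal tissue, so that replicates 1 and 3 lay above all normal samples and replicate 2 below all of them. Nip7 read 9.69, 8.30 and 9.69, against 8.21 to 8.91 in normal tissue, and Nop14 read 9.82, 8.67 and 9.69, against 8.86 to 9.39. For these 2 genes replicates 1 and 3 again lay above all normal samples, while replicate 2 lay within the normal range for Nip7 and below it for Nop14. Dkc1 read 9.98, 7.31 and 10.78, against 9.21 to 10.83, where replicates 1 and 3 lay within the normal range. Without replicate 2 the count was 12 risers and 0 that fell (10.4% of all genes rose), namely Pes1, Utp15, Nip7, Nob1, Nop14, Fbl, Mybbp1a, Wdr12, Rrp9, Nop56, Nop58 and Bop1, and the median over the 28 genes other than Myc and Mycn was 0.64. Nip7 then had a log2 fold of 1.18 ± 0.28, Nop58 of 1.17 ± 0.35 and Utp15 of 1.03 ± 0.19 (limma adjusted p = 0.00645, 0.0242 and 0.00137). The same array had a mean of 8.60 in the replication and mitosis list, where p53 tumours 1 and 3 had 10.71 and 10.56, and of 12.55 in the macrophage list, where they had 10.79 and 11.53; the part of either in its low levels was not tested.

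Myc read 11.74, 8.83 and 11.75 in p53 tumours 1 to 3 and 10.49 to 11.31 in normal tissue. Replicates 1 and 3 lay above all normal samples and replicate 2 below all of them. The log2 fold was -0.21 ± 0.51 (limma adjusted p = 0.794), and without replicate 2 it was 0.76 ± 0.34 (adjusted p = 0.128). Mycn read 7.49, 7.55 and 7.80, a log2 fold of -0.12 ± 0.28 (adjusted p = 0.776). In the roles without a call the largest log2 folds were those of Ncl at 0.29 ± 0.26, Dkc1 at -0.73 ± 0.55 and Polr1b at -0.26 ± 0.29 (adjusted p = 0.429, 0.348 and 0.535).

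Other genes of the pathway in p53 tumours are counted beside the 8.34% of all genes that rose. Of 44 other small subunit factors 3 rose (Heatr1 by 0.89 ± 0.25, Wdr3 by 0.87 ± 0.22 and Ddx52 by 0.61 ± 0.21) and 1 fell (Wdr46, -0.75 ± 0.22), of 42 other large subunit factors 4 rose, led by Tex10 at 0.92 ± 0.18, of 9 other snoRNP proteins 1 rose (Snu13) and of 10 other RNA polymerase I genes 1 rose (Polr1c). Of 55 ribosomal protein genes 3 rose, Rpl30, Rps29 and Rpl24, by 0.73 ± 0.21, 0.63 ± 0.21 and 0.54 ± 0.18. None of the 24 replication and mitosis genes passed, with 6 higher at an unadjusted p below 0.05. Without replicate 2 the first 4 lists had 12, 16, 3 and 1 risers, beside 10.4% of all genes, and 10 of the 24 replication and mitosis genes rose.

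Setting Rb/p53 tumours against p53 tumours asks what differs with the added deletion of Rb. Of the 9 Rb/p53 tumours 7 are labelled as transplants, 2 of them Ad-Cre, and no p53 tumour is, so genotype overlaps with transplantation. When MMTV-Cre replicates 1 and 2 alone stood for the Rb/p53 tumours, 0 of all genes passed and the median log2 fold of the 28 genes other than Myc and Mycn was 0.41. Over all 30 genes it was also 0.41, and it was 0.05 with p53 replicate 2 left out as well, a choice made after looking at the values. None of the 30 genes passed, where 1 gene in all did (0.00502%, limma). At an unadjusted p below 0.05, 6 were higher in Rb/p53 tumours and 0 lower, against 10.6% of all genes higher: Noc4l, Nolc1, Polr1a, Dkc1, Nop14 and Nop2. In 27 of the 30 the Rb/p53 mean was the higher one, against 45.9% of all genes. Both counts include p53 replicate 2, and without it the median log2 fold of the 30 genes turned from 0.256 to -0.145. Other lists differed as well, with no gene past the threshold: of 24 replication and mitosis genes 24 had the higher mean, 10 of them at an unadjusted p below 0.05 (median log2 fold 0.69, and 0.03 without p53 replicate 2), and of 7 macrophage markers 7 had the lower mean, 5 of them at an unadjusted p below 0.05 (median -1.04, and -0.48 without that array). Their part in the result was not tested. Noc4l had the smallest p, with 9.67 to 10.57 and a median of 10.10 in Rb/p53 tumours and 9.51, 9.09 and 9.78 in p53 tumours 1 to 3, a log2 fold of 0.65 ± 0.18 (limma adjusted p = 0.143). The 2 ranges met between 9.67 and 9.78. Nolc1 ranged from 10.26 to 10.80 in Rb/p53 tumours and read 9.84, 8.77 and 10.50 in p53 tumours 1 to 3 (0.74 ± 0.26, adjusted p = 0.181), with replicate 3 among the Rb/p53 tumours and the others below them. The highest fold was that of Dkc1 at 1.31 ± 0.52 (adjusted p = 0.210), which was 0.28 without p53 replicate 2. The median log2 fold of the 28 genes other than Myc and Mycn was 0.24, and -0.17 without p53 replicate 2.

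Myc had a log2 fold of 0.86 ± 0.53 between the genotypes (11.63 ± 0.51 in 9 Rb/p53 tumours and 10.77 ± 1.68 in 3 p53 tumours, SD; limma adjusted p = 0.329) and of -0.11 without p53 replicate 2. Mycn had one of 0.29 ± 0.29 (adjusted p = 0.529). Pes1 and Utp15 had log2 folds between the genotypes of -0.11 ± 0.18 and 0.07 ± 0.22 (adjusted p = 0.713 and 0.858). With p53 replicate 3 left out, or moved to the Rb/p53 tumours as its title has it, 3 genes passed in both cases, Nolc1, Dkc1 and Noc4l, with log2 folds of 1.14, 2.02 and 0.81 in the first case, where 4.25% of all genes passed as higher (5.58% in the other). In both cases the p53 group rested on replicates 1 and 2.

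Among Rb/p53 tumours, no difference between Ad-Cre and MMTV-Cre was detectable in the 30 genes with 2 and 7 arrays. The spread was estimated over all 12 tumours with p53 replicate 2 among them, and no fit without that array was run for this comparison. For Myc the SD was 1.68 in the 3 p53 tumours and 0.57 in the 7 MMTV-Cre tumours. None passed, and 0 did so at an unadjusted p below 0.05, where 1 gene in all passed (0.00502%, limma) and 2.07% of genes were below an unadjusted 0.05. Myc read 11.41 and 11.42 in the Ad-Cre tumours, and 10.92 to 12.68 with a median of 11.78 in the 7 MMTV-Cre tumours, a log2 fold of -0.28 ± 0.66. Mycn had the largest fold, with 7.58 and 7.51 in Ad-Cre tumours and 7.17 to 8.91 in MMTV-Cre tumours (-0.47 ± 0.34). Both Ad-Cre tumours lay within the MMTV-Cre range for Myc and Mycn. In 11 of the 30 the Ad-Cre mean was the higher one, against 44.4% of all genes. No fold of the 30 exceeded 0.47 in size. The way of delivering Cre overlaps with transplantation, because the only Rb/p53 tumours without a transplant label are MMTV-Cre replicates 1 and 2. Myc read 11.81 and 12.68 in these 2 tumours. With only the MMTV-Cre transplants on the other side, the log2 fold of Myc was -0.06. The median log2 fold of the 30 genes then moved from -0.075 to 0.006.

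The 5 transplanted MMTV-Cre tumours were set against the 2 others. The mean was mostly the lower one in the transplants, but none of the 30 genes passed, where 5 genes in all did (0.0251%, limma). In 26 of the 30 the transplants had the lower mean, while 57.3% of all genes were higher, and the median log2 fold was -0.26, against 0.03 for all genes. At an unadjusted p below 0.05, 7 were lower and 0 higher, against 4.06% of all genes lower: Wdr43, Npm1, Utp15, Gnl3, Noc4l, Pes1 and Nop58. In 6 genes all transplants lay below both other tumours, as in 5.46% of all genes.

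Wdr43 had the smallest p. It read 10.44, 10.37, 10.91, 10.62 and 10.69 in the transplants (MMTV-Cre replicates 3 to 7) and 11.04 and 11.12 in the other tumours, a log2 fold of -0.47 ± 0.15 (limma adjusted p = 0.599). Npm1 read 11.88, 11.76, 12.11, 11.83 and 12.03 in the transplants, against 12.18 and 12.39, again without overlap (-0.36 ± 0.13, adjusted p = 0.609). Pes1 read 9.84, 9.48, 10.21, 9.61 and 9.80 in the transplants, against 10.34 and 10.25 (-0.51 ± 0.19, adjusted p = 0.611), and Gnl3 read 10.16, 10.20, 10.52, 10.12 and 9.75, against 10.61 and 10.70 (-0.50 ± 0.19, adjusted p = 0.610). Replicate 5 was the highest transplant in each of these genes. Myc had the largest fold of the 30, -0.77 ± 0.34 (11.48 ± 0.43 in 5 transplants and 12.25 ± 0.62 in 2 other tumours, SD; adjusted p = 0.628), and its ranges overlapped, because transplanted replicate 7, at 11.93, lay above replicate 1, at 11.81. The replication and mitosis list had a median log2 fold of 0.08 in the same comparison.

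The level of the ribosome biogenesis genes differed among the 9 Rb/p53 tumours. MMTV-Cre replicate 4 was lowest in 17 of the 30 genes, and replicate 2 was highest in 13 and replicate 5 in 8. The mean of the 28 genes other than Myc and Mycn ran from 9.85 in replicate 4 to 10.44 in replicates 2 and 5. As a description over 9 tumours whose values were normalised together, this mean correlated at r = 0.98 with the mean of the other small subunit factors, at 0.94 with that of the other large subunit factors and at 0.78 with that of the other Myc targets, and at -0.01 with the replication and mitosis list and 0.04 with the ribosomal proteins.

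Myc had a positive correlation with every one of the 28 genes over these 9 tumours, with a median r of 0.47 and a range from 0.11 for Nop2 to 0.88 for Npm1; the median over all genes was -0.07. Nop58 at 0.77 and Noc4l at 0.73 came next to Npm1. Without the 2 tumours whose Myc level was farthest from the median, MMTV-Cre replicates 2 and 6, the median was 0.51 and 27 of 28 were positive, and within the 7 transplants it was 0.41 and 24 of 28; of all genes 42.9%, 51.1% and 51.5% were positive in these 3 settings. Mycn gave a median r of 0.18 over the 9 tumours, with 24 of 28 positive, against 59.7% of all genes. For Mycn it was 0.57 and 27 of 28 without the same 2 tumours (56.6% of all genes), and 0.52 and 27 of 28 within the 7 transplants (56.4%), above the medians for Myc. These values describe 9 tumours and carry no test.

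**Figure D5:**
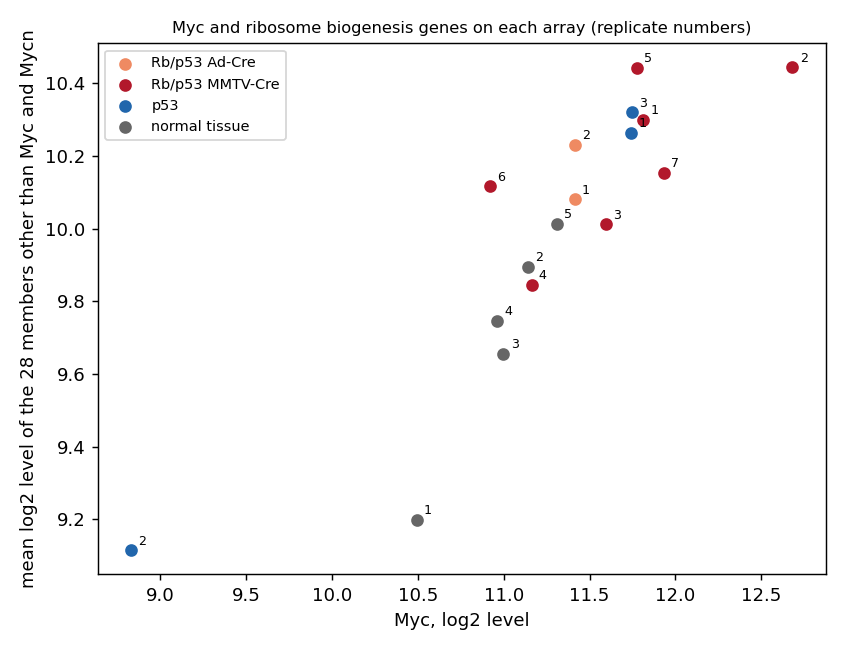
Each point is an array, with the log2 level of Myc on the horizontal axis, the mean log2 level of the 28 genes other than Myc and Mycn on the vertical axis, colour for the group and the replicate number beside it. The Rb/p53 tumours lie between 9.85 and 10.44 on the vertical axis, and p53 replicate 2 and normal replicate 1 lie at the bottom left, at 9.12 and 9.20.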

How the data were processed

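RNA of each sample was hybridised to 1 Affymetrix Mouse Gene 1.0 ST array. The deposited values are log2 intensities per probe set that the authors made with RMA (background correction, normalisation between arrays, probe summary) in Partek 5.6, per the submitters' processing notes. RMA normalisation assumes like distributions on all arrays, so shifts common to most genes are removed. A genome build is not given in the sources used here.

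Of 35556 probe sets 21789 have 1 gene symbol in GEO's platform annotation, 1621 have several and 12146 have none there. Probe sets with 1 symbol were kept, for each gene the one with the highest mean, leaving 19938 genes. Groups were compared with limma 3.58.1 in R 4.3.3 (lmFit, eBayes) on the log2 values, with p-values adjusted by Benjamini-Hochberg over all 19938 genes and a threshold of 0.05. The comparisons with normal tissue were fitted on all 17 arrays as 3 groups, those between genotypes and between ways of delivering Cre on the 12 tumours, and the one on transplants on the 7 MMTV-Cre Rb/p53 tumours. Recovery was checked on simulated data with 200 changed genes of 19938. The fit of Rb/p53 tumours against normal tissue recovered 96% of log2 changes of 2 and 84% of changes of 1. That of p53 tumours against normal tissue recovered 93% and 70%. The shares were 92% and 76% for Rb/p53 against p53 tumours. They were 92% and 48% for Ad-Cre against MMTV-Cre tumours, and 92% and 62% for transplanted against other MMTV-Cre tumours. Recovery of changes below 1 is not given here. The listed genes had log2 folds of at most 0.98 in Rb/p53 tumours against normal tissue, so these shares do not describe them. The precision is limited by the number of arrays. The gene list, the further lists and the markers were chosen with earlier results of these data known.

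All listed genes are accounted for in each comparison. Named with values are Myc, Mycn, the genes past the threshold, the gene with the largest fold in a role without one, and up to 3 genes of each further list. Alternatives were other normalisations, array weights, a filter on low values, the mean of a gene's probe sets, other sets of arrays and each array left out in turn. Promoters are from RefSeq on GRCm38.p6 and were searched for the motifs spelled out beside them. p53 itself was not analysed here.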

Additional observations from a re-analysis of the deposited data

Results flagged for a closer look

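Nop16, a factor of large subunit assembly, had 1 tumour far below the others. MMTV-Cre replicate 4 read 10.91, and the nearest of the other Rb/p53 tumours read 11.43. The gap was 0.605 of the whole range over the 9 Rb/p53 tumours, above Dixon's critical value of 0.493, and 0.613 of it over the 7 MMTV-Cre tumours, above 0.568. These were 2 of 90 groups of values examined in this way, where chance alone gives about 1 in 20, so the flags are no more than that share. Both are the same value of the same tumour, since the 7 MMTV-Cre tumours are among the 9 Rb/p53 tumours.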

How the results depend on the processing

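No paired analysis was possible because the replicate numbers only name the samples and no label pairs samples across groups. For Rb/p53 tumours against normal tissue, 10 genes passed, and the count was 17 with array weights, 17 with only the arrays compared and 17 with p53 replicate 2 left out of the shared spread, a choice made after looking at the values. In these 4 settings 14.2%, 21.2%, 18.6% and 18.4% of all genes rose, in the same order. The count was 2 with only the tumours not labelled as transplants (3.38% of all genes rose) and 1 with only the Ad-Cre tumours (3.96%). With single arrays left out it was 5 to 11, 5 being without normal replicate 1 (10.6%). The settings with few arrays have fewer samples by construction. For p53 tumours against normal tissue, 2 genes passed, and the count was 10 with array weights, 5 with quantile normalisation, 4 with cyclic loess, 1 with only the arrays compared and 1 to 12 with single arrays left out, 12 being without p53 replicate 2, and 1 each without p53 replicates 1 or 3 or normal replicates 1, 3 or 4. Of all genes 8.34% rose in the main fit, 11.3% with array weights, 8.9% with cyclic loess and 4.76% with only the arrays compared. The share was 10.4% without p53 replicate 2, 13.7% without p53 replicate 3, 6.47% without normal replicate 1 and 6.09% without normal replicate 4. With quantile normalisation 4800 of the 19938 genes passed in either direction. With replicate 3 of the p53 tumours counted as Rb/p53, 2 passed, Pes1 as higher and Dkc1 as lower, where 28.1% of all genes passed. For Rb/p53 against p53 tumours the count was 0, 3 with that replicate moved, and 0 to 3 with single arrays left out, 3 being without that replicate. Of all genes 5.58% rose with p53 replicate 3 moved and 4.25% without it. For the other comparisons the count was 0 under all 17 and 14 alternatives. No called gene changed direction. The cause of the differences was otherwise not tested. Rrs1 in normal replicate 1 is the only value of the 30 genes below the background mark of 6.37.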

Other observations

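Of the 5 genes whose levels were most like that of Myc over the 9 Rb/p53 tumours 4 were small nucleolar RNA genes, which were looked at after their values had been seen. Of all 19938 genes the 5 with the highest Pearson r to Myc were Snord47 (0.947), Snord35a (0.937), Olfr776 (0.932), Snord33 (0.928) and Snord53 (0.926). Box C/D small nucleolar RNAs of the Snord family guide methylation of ribosomal RNA and are the partners of Fbl, Nop56 and Nop58. Olfr776, an olfactory receptor gene, averaged 4.33 ± 0.24 in these tumours (SD, n = 9), below the background mark. Of 31 Snord genes measured 28 had an r above 0, against 42.9% of all genes, with a median of 0.74, against -0.07 for all genes. This median was 0.58 over the 7 transplants and 0.42 without the 2 tumours farthest from the median of Myc, and 10 were among the 50 genes most like Myc. These are descriptions over 9 tumours and carry no test.

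Against normal tissue, Snord53 averaged 10.38 ± 0.58 in Rb/p53 tumours (SD, n = 9) and 9.09 ± 0.36 in normal tissue (SD, n = 5), a log2 fold of 1.29 ± 0.31 (SE; limma adjusted p = 0.0051). Snord33 averaged 9.39 ± 0.33 and 8.36 ± 0.31 in the same groups (1.03 ± 0.23, adjusted p = 0.0026), and Snord35a averaged 10.69 ± 0.41 and 9.81 ± 0.18 (0.89 ± 0.20, adjusted p = 0.0033). Snord47 averaged 9.44 ± 0.45 and 9.32 ± 0.34 and did not pass (0.13, adjusted p = 0.788). In p53 tumours against normal tissue Snord53, Snord33 and Snord35a rose too, by 1.23 ± 0.41, 1.12 ± 0.30 and 1.24 ± 0.26. Their limma adjusted p were 0.042, 0.013 and 0.0029, and Snord47 did not pass (0.57 ± 0.33, adjusted p = 0.227). None of these genes passed between Rb/p53 and p53 tumours. In p53 replicate 2, where Myc was lowest, Snord35a read 10.76, above all normal samples. Snord53, Snord33 and Snord47 lay within the normal range there.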
